A study of Rattus norvegicus with 8 samples.

Results

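The data described here are from the differentiation of inguinal adipose-derived stem cells of rats on a high-fat sucrose (HFS) diet into adipocytes. They are 4 of the 8 RNA-seq libraries of the study. The precursor group, ASC_HFS, holds 2 libraries of undifferentiated stem cells, and the adipocyte group, AD_HFS, holds 2 libraries of differentiated cells. Members were chosen by their labels alone, and the genes compared were the 14018 that both deposited tables list by the same identifier, of 14295 in the stem cell table and 18236 in the adipocyte table. The rats were Wistar with the genotype given as WT, kept for 6 months on the HFS diet, and their ages are not given in the labels. The adipocytes had spent 3 days in an induction medium containing 5.0 µM dexamethasone, 0.5 mM IBMX (an inhibitor of phosphodiesterases) and 10.0 µg/mL insulin, followed by 7 days in an insulin maintenance medium. Cells of rats on a control diet, handled alike, form the groups ASC_C and AD_C (2 libraries each), which stand beside the HFS values below. No label ties a library to a rat or a culture, so p-values below measure only the spread between these samples, which may be technical.

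Adipocyte differentiation is the step by which a fibroblast-like precursor becomes a cell that makes, stores and releases fat. Glucocorticoid, a rise in cAMP and insulin induce C/EBPβ and C/EBPδ, which switch on PPARγ and C/EBPα. The latter pair maintain each other and drive the genes of lipid synthesis, the droplet coat and insulin-responsive glucose uptake. Precursors at the same time lose part of their fibrillar matrix program. Obesogenic diets are known to inflame adipose tissue and to bring macrophages into it.

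The read totals regained from the tables were 5847457 and 992020 over the shared genes in the ASC_HFS libraries and to 119361891 and 81036455 in the AD_HFS libraries. Each value below is a level in ppm, the reads of a gene per 1000000 reads of its library over the shared genes, with the library of replicate 1 given before that of replicate 2. Levels are not corrected for gene length, so they compare libraries and not genes. A floor of 3 reads stood at 0.513 and 3.02 ppm in ASC_HFS and at 0.0251 and 0.0370 ppm in AD_HFS. Because each stage has its own table, normalized apart, and the adipocyte libraries are deeper, stage, table and depth cannot be told apart and no p-value is given between stages. In their place, a gene was called higher when its lower AD_HFS library was at least 2 times its higher ASC_HFS library, and lower in the reverse case. A fold is the ratio of the 2 group means with values under the floor set to it. The AD_HFS libraries differed by a median of 1.033-fold, against 1.255-fold between the ASC_HFS libraries and 1.171-fold between the AD_C libraries, for genes of at least 20 ppm. They differed beyond sampling noise (chi-square of 8.05 per degree of freedom) and were kept as 2 samples.

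Of 13894 genes with both libraries of at least 1 group above the floor, 2564 (18.5%) were higher and 2651 (19.1%) were lower in adipocytes, and the median log2 ratio over all of them was 0.06. Counts in the gene lists below are to be read beside these shares. Without ASC_HFS replicate 2, the shallowest library, 3913 were higher and 3091 lower. Of the lower calls 461 rested on the floor of a precursor library, since a precursor value under 3 reads was lifted to it, and 2190 (of 2651) held with the floor set on the adipocyte side alone. All 2564 higher calls held in the same check, as the floor can only shrink a ratio upward. At least 10-fold higher were 184 genes, and at least 10-fold lower were 968, of which 737 did not rest on the precursor floor. Ratios upward are bounded by the ASC_HFS floor, which lies above that of AD_HFS, so the reach of the 2 sides cannot be compared. Over the same libraries, Spearman's rho across the shared genes was 0.999 between the AD_HFS libraries, 0.951 between the ASC_HFS libraries and 0.772 to 0.796 between the stages. The genes that took the most reads differed between the stages. In both precursor libraries the top 4 were Gsn, which encodes the actin-severing protein gelsolin, and the fibrillar collagen genes Col1a1, Col3a1 and Col1a2. In both adipocyte libraries the top 2 were the mitochondrial gene COX1 and the desaturase gene Scd. Gsn stood at 25358 and 27415 ppm in ASC_HFS and at 2100.0 and 2066 ppm in AD_HFS, 12.7-fold lower. Scd, whose enzyme makes oleate, stood at 472 and 295 ppm in ASC_HFS and at 19739 and 20783 ppm in AD_HFS, 52.8-fold higher. In neither gene did the stages overlap.

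**Figure D1:**
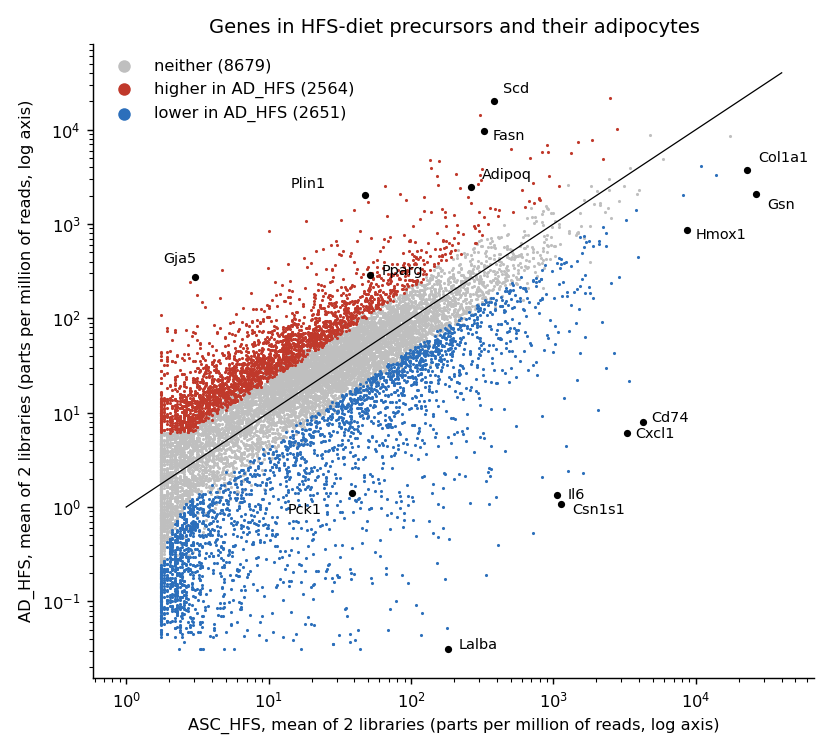
Mean level of each described gene in ASC_HFS (horizontal) and AD_HFS (vertical), both in ppm on log axes with values under the floor set to it. Red and blue points are the 2564 genes called higher and the 2651 called lower, grey points neither, black points are named genes, and the line marks equal levels. The edge of points at the left is the ASC_HFS floor, and part of the 461 lower calls that rest on it lie there.

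Among genes of at least 20 ppm, the largest ratio upward was that of Gja5, the gap junction gene for connexin 40, at 3.08 and 3.02 ppm in ASC_HFS and 273 and 279.9 ppm in AD_HFS (90.6-fold). Next came Fam13a (88.0-fold), the small heat shock gene Hspb7 (82.8-fold), the propionyl-CoA ligase gene Acss3 (69.9-fold) and Cbln1. Cbln1 had 3 reads in ASC_HFS in all, and its ratio of pooled reads was 245 with an exact 95% counting interval of 83.8 to 1188. Pnpla3, a lipase and acyltransferase gene under insulin control, was 57.8-fold higher, and the thyrotropin receptor gene Tshr 56.3-fold. The others of the 15 were Scd, Tmem179, Plin1, Acaca, Ston1, Scd2, Itga8 and Pex11a, between 37.0-fold and 52.8-fold. Of the 15, Scd, Scd2 and Acaca encode enzymes of fatty acid synthesis and Plin1 and Pnpla3 proteins of the lipid droplet. Scd and Scd2 are similar in sequence, so how reads were split between them is uncertain.

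The largest ratios downward were those of genes of other tissues and of inflammation. Lalba, the milk protein gene for alpha-lactalbumin, stood at 222 and 140.1 ppm in ASC_HFS and had 4 reads in all in AD_HFS, a ratio of 5826 with the floor in place. The tight junction gene Cldn4 was 2685-fold lower, the globin gene Hba-a1 1749.9-fold and the retinaldehyde dehydrogenase gene Aldh1a3 1582-fold. Ccl24, a chemokine gene, had 2 reads in AD_HFS in all, and its pooled ratio of 4190 had an interval of 1149 to 34764. The chemokine genes Ccl17 and Cxcl2 were 1382-fold and 1347-fold lower, the Wnt modulator gene Dact2 1181-fold and the casein gene Csn1s1 1051-fold. Selp and Sele, the selectin genes of activated endothelium, were 1039-fold and 996-fold lower. Csn1s2a, Stmn4 and Csf2 were also among the 15.

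Transcription factors of adipogenesis were on both sides. Of 25 described factors and cofactors, 9 were higher, 5 lower (Prdm16 by the floor alone) and 11 neither, with a median log2 ratio of 0.37. Pparg, the master receptor, stood at 56.9 and 46.4 ppm in ASC_HFS and at 288 and 293 ppm in AD_HFS (5.62-fold). Cebpa stood at 130.5 and 173 ppm in ASC_HFS and at 803 and 790.1 ppm in AD_HFS (5.24-fold), and the PPARγ partner gene Rxra was 5.64-fold higher. Both AD_HFS libraries lay well above both ASC_HFS libraries for these genes. The largest ratios of the 9 were those of Mlxipl, Klf15 and Srebf1. Mlxipl, which encodes the glucose sensor ChREBP, was 26.3-fold higher, the glucocorticoid-inducible Klf15 22.9-fold and the SREBP-1 gene Srebf1 19.4-fold. In contrast, Cebpb, the early factor, stood at 1311 and 2289 ppm in ASC_HFS and at 199.7 and 173 ppm in AD_HFS, 9.65-fold lower. Klf4 was 6.89-fold lower and Stat5a 2.44-fold. Cebpd, at 209.7 and 278 ppm in ASC_HFS and 138 and 129 ppm in AD_HFS, was called neither, since its nearest libraries were less than 2-fold apart.

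Promoter sequences were available from RefSeq (build GRCr8) for 15 of the 23 genes named below as selected genes, as windows from 250 bases before to 50 after the start. The direct repeat read by PPARγ with RXR, a pair of AGGTCA with any 1 base between, was searched on both strands and was in none of the 15, beside 0.0538% of all 33469 promoters. The C/EBP letters TTGCGCAA were in that of Lep (0.170% of all promoters), TTGCACAA in that of Il6 (0.816%) and ATTGCAT in that of Pdgfra (2.22%). These 3 stretches are shown because they are the matches among the selected genes, 5′ to 3′ on the strand of the gene, with the matched letters in capitals (in Il6 the match is on the opposite strand). They lie at chr4:58626439-58626506 on the plus strand, chr4:5894690-5894757 on the minus strand and chr14:33408688-33408754 on the minus strand.
Lep: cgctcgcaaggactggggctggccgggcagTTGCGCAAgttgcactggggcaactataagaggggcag
Il6: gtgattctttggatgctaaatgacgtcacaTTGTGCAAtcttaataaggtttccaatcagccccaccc
Pdgfra: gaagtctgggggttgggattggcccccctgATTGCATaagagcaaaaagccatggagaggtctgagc
Across the stages Lep was called neither, Il6 lower and Pdgfra neither. A match is a description of letters and says nothing about binding.

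Adipokines, the hormones that fat cells secrete, were more often higher than lower. Of 17 described genes, 7 were higher, 3 lower and 7 neither (median log2 ratio 0.93). Adipoq, the adiponectin gene, stood at 290.0 and 234 ppm in ASC_HFS and at 2458 and 2503 ppm in AD_HFS, 9.47-fold higher. Resistin (Retn) was 17.0-fold higher, the retinol carrier gene Rbp4 15.5-fold, the lipoprotein lipase modulator gene Angptl8 13.6-fold and the complement factor gene Cfd 4.30-fold. The leptin gene Lep did not follow them: it stood at 87.6 and 62.5 ppm in ASC_HFS and at 67.8 and 68.8 ppm in AD_HFS, and the stages overlapped. Under the control diet Lep stood at 6.29 and 32.9 ppm in ASC_C and 92.8 and 43.8 ppm in AD_C. The lower genes were Angptl4 (3.94-fold), Metrnl (12.5-fold) and the placental growth factor gene Pgf (27.1-fold).

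Of 12 lipid droplet genes, 9 were higher and 2 lower, Plin2 and, by the floor alone, Cideb (median log2 ratio 2.81). Plin1, the perilipin of the large droplet, stood at 54.2 and 40.3 ppm in ASC_HFS and at 2046 and 1988 ppm in AD_HFS (42.7-fold). Cidec and Cidea, which fuse droplets, were 8.02-fold and 11.4-fold higher, the lipase inhibitor gene G0s2 10.7-fold and the caveola genes Cav1 and Cav2 6.17-fold and 19.6-fold. Plin2, the coat gene of small droplets in many cell types, went the other way, from 1861 and 3239.8 ppm in ASC_HFS to 237 and 234 ppm in AD_HFS, 10.8-fold lower.

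**Figure D2:**
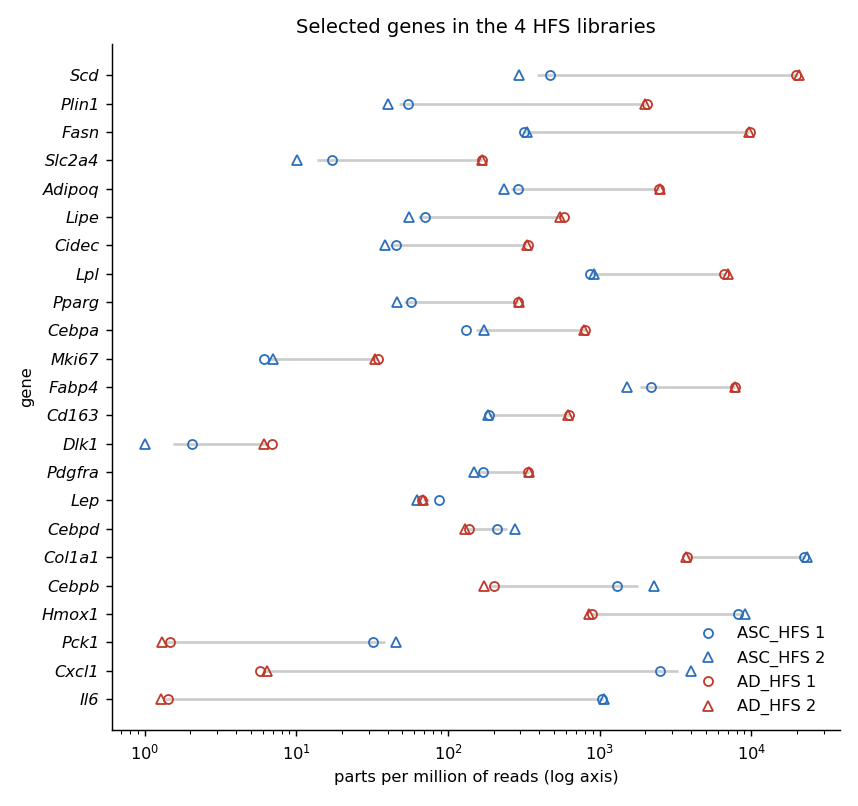
Levels of 23 selected genes in each of the 4 HFS libraries, in ppm on a log axis, ordered by their ratio. Blue symbols are ASC_HFS, red are AD_HFS, circles replicate 1 and triangles replicate 2, and the grey line joins the group means. Scd, Plin1 and Fasn lie at the top with the largest ratios upward and Il6 and Cxcl1 at the bottom with the largest downward, while the Lep symbols of the 2 stages overlap.

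Fatty acid and triglyceride synthesis had the highest median log2 ratio of the lists with at least 5 described members, 4.12, with 21 of 26 genes higher, 1 lower and 4 neither. The list took 0.275% and 0.251% of reads in ASC_HFS and 5.72% and 5.81% in AD_HFS. Along the path from citrate to fat, the citrate exporter gene Slc25a1 was 22.6-fold higher, Acly, which splits citrate to acetyl-CoA, 35.4-fold and Acaca, which makes malonyl-CoA, 41.2-fold. Fasn, the fatty acid synthase gene, stood at 316 and 333 ppm in ASC_HFS and at 9742 and 9606 ppm in AD_HFS (29.8-fold). Me1, a source of NADPH, was 19.3-fold higher and the elongase gene Elovl6 16.9-fold. Of the steps that esterify fatty acids to glycerol, Gpam was 35.7-fold higher, Agpat2 18.0-fold, the phosphatidate phosphatase gene Lpin1 34.2-fold, and the final acyltransferase genes Dgat2 and Dgat1 11.1-fold and 3.48-fold. The lower gene was Gpat3 (2.54-fold), while its paralog Gpat4 was called neither.

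Genes of uptake and release were more often higher than lower. Of 14 uptake and binding genes, 9 were higher and 2 lower: Lpl, which frees fatty acids from lipoproteins, stood at 864 and 923 ppm in ASC_HFS and at 6639 and 7079.9 ppm in AD_HFS (7.67-fold), and the carrier gene Fabp4 was 4.21-fold higher. Apoe, among the top genes of the precursors, was 2.66-fold lower and the lipid transfer gene Pltp 8.70-fold. Of 17 lipolysis genes, 12 were higher and 2 lower (median log2 ratio 1.83, and 2.42 after thinning). Lipe, the hormone-sensitive lipase gene, stood at 70.6 and 55.4 ppm in ASC_HFS and at 580.1 and 547 ppm in AD_HFS (8.94-fold), the β3-adrenergic receptor gene Adrb3 was 3.56-fold higher and the niacin receptor gene Hcar2 5.12-fold lower. The lipase gene Pnpla2 was not analysed here.

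Of 9 genes that supply or carry glycerol, 5 were higher and 3 lower. Gpd1, which makes glycerol 3-phosphate from a glycolytic intermediate, was 28.1-fold higher, and Pc, the pyruvate carboxylase gene, 34.0-fold. Pck1, the gate of glyceroneogenesis and a usual PPARγ target in fat cells, stood at 31.8 and 45.4 ppm in ASC_HFS and at 1.47 and 1.31 ppm in AD_HFS, 27.7-fold lower. Under the control diet it stood at 0.599 and 2.88 ppm in ASC_C and 0.816 and 1.30 ppm in AD_C, so the adipocyte levels of both diets were near each other and the ASC_HFS levels stood above the others. Pdk4, which holds back pyruvate oxidation, was 9.16-fold lower.

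Of 27 genes of insulin signalling, 11 were higher, 1 lower and 15 neither (median log2 ratio 0.95). With all libraries thinned to the shallowest depth 7 were higher. Slc2a4, which encodes the insulin-responsive glucose transporter GLUT4, stood at 17.3 and 10.1 ppm in ASC_HFS and at 167 and 168 ppm in AD_HFS (12.2-fold), and the GLUT4 traffic gene Trarg1 was 8.47-fold higher. Insr, Irs1 and Akt2 of the proximal pathway were 2.41-fold, 3.52-fold and 2.60-fold higher. Irs2 and Akt1 were called neither. The phosphatase gene Ptpn1, which acts against the receptor, was 2.43-fold lower.

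Genes of mitochondrial metabolism were higher in the adipocytes, and few were lower. Of 22 tricarboxylic acid cycle genes 17 were higher and 0 lower, of 24 fatty acid oxidation genes 18 higher and 1 lower, and of 17 genes that break down branched-chain amino acids 16 higher and 1 lower. Among them the malate dehydrogenase gene Mdh1 was 9.75-fold higher, the pyruvate dehydrogenase gene Pdha1 5.07-fold, the β-oxidation gene Hadha 3.32-fold, and the branched-chain dehydrogenase gene Bckdha 9.16-fold. The exceptions were Cpt1a, the liver-type carnitine transferase that admits fatty acids to mitochondria, 4.55-fold lower, and the cytosolic transaminase gene Bcat1, 4.87-fold lower. The mitochondrial transaminase gene Bcat2 was 2.50-fold higher.

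All 13 protein-coding genes of the mitochondrial genome were higher, from 3.76-fold (ND1) to 12.9-fold (ND4L). COX1 stood at 1959 and 3025 ppm in ASC_HFS and at 20864 and 22424 ppm in AD_HFS. Of 47 nuclear genes of the respiratory chain and ATP synthase, 20 were higher and 0 lower, with a median log2 ratio of 1.27. Under the control diet 4 of them were higher and 1 lower, with a median log2 ratio of -0.034. The examples Atp5f1b, Sdha and Ndufs1 were 2.40-fold, 3.69-fold and 5.25-fold higher, and Cox4i1 was called neither at 487 and 533 ppm in ASC_HFS and 526 and 489 ppm in AD_HFS. The labels name both polyA RNA and a kit that depletes ribosomal RNA, and the files do not settle which applied to the stages. Among 8 described thermogenic genes 5 were higher, with the droplet gene Cidea and the glycerol kinase gene Gk (6.23-fold) among them. Prdm16, the brown fat regulator gene, stood at 2.74 and 1.01 ppm in ASC_HFS and 1.02 and 1.10 ppm in AD_HFS, and its call as lower rests on the floor.

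Glycolysis and sterol synthesis were higher in AD_HFS than in ASC_HFS as well. Of 19 glycolysis and lactate genes, 10 were higher and 1 lower (median log2 ratio 1.56), among them the 6-phosphofructo-2-kinase gene Pfkfb3 (7.32-fold), Pfkl (5.57-fold), Ldha (3.79-fold) and Gapdh (2.95-fold). Hk2, the inducible hexokinase gene, was 6.82-fold lower. Of 23 cholesterol genes, 18 were higher and 1 lower (median log2 ratio 1.86). The late-step genes Dhcr7 and Nsdhl were 24.6-fold and 14.3-fold higher. The ASC_HFS libraries stood below the other groups in their share of both lists. Cholesterol genes took 0.162% and 0.160% in ASC_HFS, 0.363% and 0.325% in ASC_C, 0.412% and 0.417% in AD_HFS and 0.376% and 0.391% in AD_C. Glycolysis genes took 0.520% and 0.396% in ASC_HFS, 1.27% and 1.19% in ASC_C, 1.10% and 1.09% in AD_HFS and 1.05% and 1.17% in AD_C. Under the control diet the median log2 ratio was -0.17 for glycolysis and -0.18 for cholesterol genes.

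**Figure D3:**
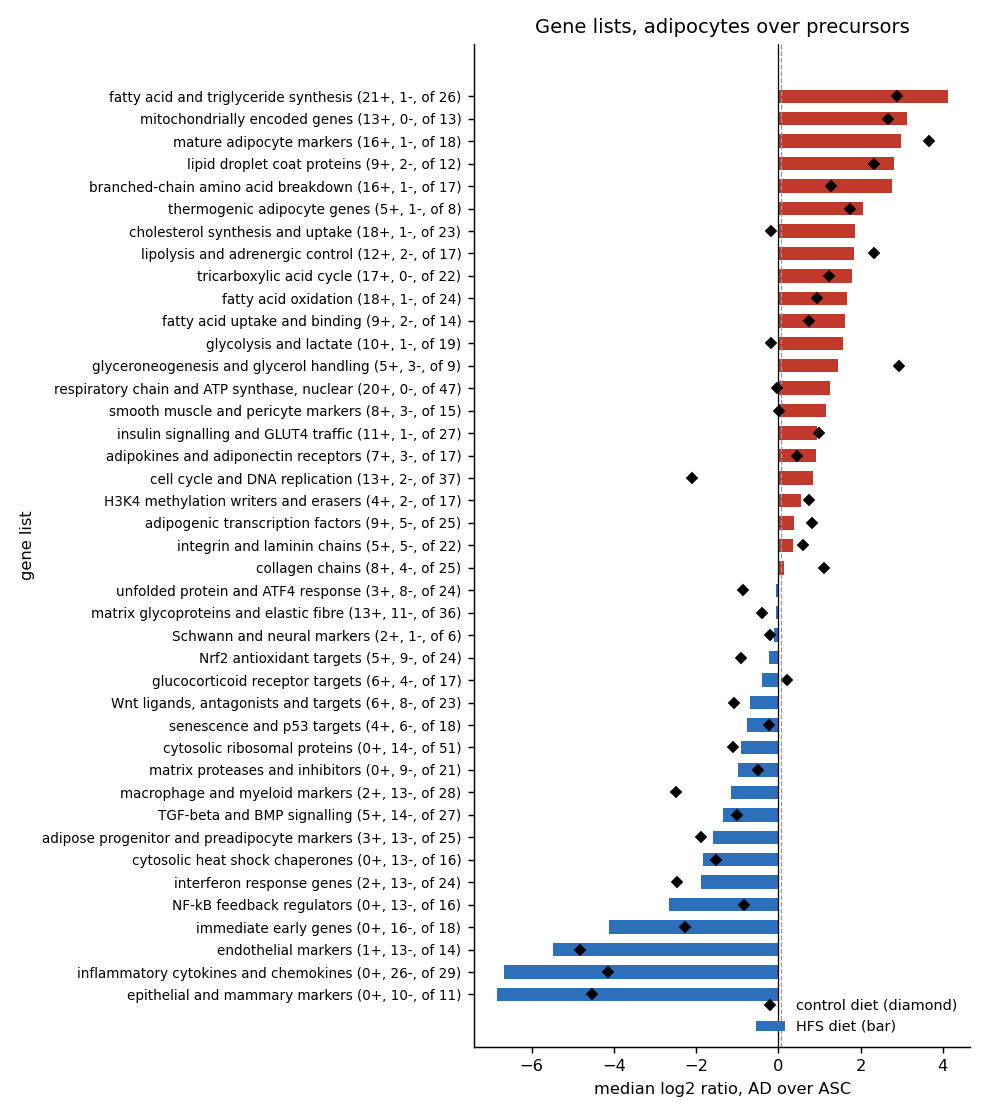
Median log2 ratio of adipocytes over precursors for 41 gene lists with at least 5 described members. Bars are the HFS diet, diamonds the control diet, the dashed line is the median of all described genes in HFS, and each label gives how many members were higher (+) and lower (-) of those described. Fatty acid and triglyceride synthesis is at the top and epithelial and mammary markers at the bottom, and the cell cycle list has its bar and diamond on opposite sides of 0.

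Dexamethasone was in the induction medium only, and targets of the glucocorticoid receptor were split. Of 17, 6 were higher, 4 lower and 7 neither (median log2 ratio -0.40). Zbtb16 was 14.6-fold higher, Fkbp5, a chaperone gene that the receptor induces, 4.75-fold, Per1 4.26-fold and Tsc22d3, which encodes the anti-inflammatory protein GILZ, 4.22-fold. Hsd11b1, whose enzyme regenerates active glucocorticoid, stood at 79.4 and 57.5 ppm in ASC_HFS and 673 and 635 ppm in AD_HFS (9.56-fold). Sgk1, Angptl4, Pdk4 and Nfkbia were 3.06-fold, 3.94-fold, 9.16-fold and 19.0-fold lower. Of 17 enzymes that write or erase methylation of histone H3 at lysine 4, 4 were higher, 2 lower and 11 neither. Over all genes 18.5% were higher and 19.1% lower. Without ASC_HFS replicate 2, 8 of the 17 were higher, beside 3913 of 13970 genes. The writer gene Setd7 was 6.59-fold higher and the eraser gene Kdm1a (LSD1) 9.54-fold lower, at 477 and 456 ppm in ASC_HFS and 50.1 and 47.6 ppm in AD_HFS.

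Collagen genes were on both sides. Of 25 described collagen genes, 8 were higher and 4 lower, and the median log2 ratio of 0.15 turned to -0.020 under median-of-ratios scaling. The list took 6.56% and 6.78% of reads in ASC_HFS and 4.49% and 4.54% in AD_HFS. Col1a1, of the fibrillar type I collagen, stood at 22148 and 23448 ppm in ASC_HFS and at 3796 and 3719.8 ppm in AD_HFS (6.07-fold lower), and its partner Col1a2 was 4.18-fold lower. The basement membrane genes Col4a1 and Col4a2 were 3.64-fold and 4.94-fold higher, Col4a1 standing at 3103 and 2513 ppm in ASC_HFS and 10082 and 10369 ppm in AD_HFS. Col12a1 and Col11a1 were 9.93-fold and 36.2-fold higher and Col14a1 was 13.9-fold lower. Col3a1, another fibrillar collagen gene, stood at 16632 and 17883 ppm in ASC_HFS and 8423 and 8702 ppm in AD_HFS and was called neither.

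Of 36 glycoprotein and elastic fibre genes, 13 were higher and 11 lower (median log2 ratio -0.049, but 0.016 without the 20 genes that take the most reads and 0.028 without ASC_HFS replicate 2). The basement membrane linkers Nid1 and Nid2 were 2.22-fold and 3.77-fold higher, the cross-linking oxidase gene Lox 8.94-fold and osteopontin (Spp1) 5.42-fold. Elastin (Eln) was 16.7-fold lower, periostin (Postn) 26.2-fold and the fibulin genes Fbln1, Fbln2 and Fbln5 5.85-fold, 5.27-fold and 3.67-fold. Of 21 proteases and inhibitors 0 were higher and 9 lower: the plasminogen activator genes Plau and Plat were 17.1-fold and 12.6-fold lower, the inhibitor genes Timp1 and Timp3 3.79-fold and 13.3-fold, and the gelatinase gene Mmp2 2.21-fold. Of 22 integrin and laminin genes 5 were higher and 5 lower, near the 18.5% higher and 19.1% lower over all genes. Itga7 was 5.04-fold higher and the fibronectin receptor gene Itga5 2.55-fold lower.

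Genes of the progenitor state were mostly lower. Of 25 progenitor and preadipocyte markers, 13 were lower, 3 higher and 9 neither (median log2 ratio -1.59), and the list took 0.903% and 0.976% of reads in ASC_HFS and 0.439% and 0.449% in AD_HFS. Pi16 and Dpp4, which mark an early interstitial progenitor in the literature on adipose stroma, were 65.8-fold and 38.1-fold lower, with Pi16 at 1711 and 1194 ppm in ASC_HFS and 22.1 and 22.0 ppm in AD_HFS. Cd34 was 122-fold lower, endoglin (Eng) 17.4-fold and Cd44 13.5-fold. The mesenchymal surface gene Thy1 went the other way (5.39-fold higher), as did lumican (Lum, 3.25-fold). Pdgfra stood at 171 and 149 ppm in ASC_HFS and 339 and 343 ppm in AD_HFS and was called neither, its nearest libraries being just under 2-fold apart. Dlk1, the preadipocyte factor, was called higher (2.57-fold) from few precursor reads, 2.05 and 1.01 ppm in ASC_HFS and 6.93 and 6.11 ppm in AD_HFS. Its log2 ratio turned to -0.48 on the deposited values without inversion.

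Genes of Wnt, TGF-β and BMP signals were on both sides. Of 23 Wnt genes, 8 were lower, 6 higher and 9 neither, and the median log2 ratio of -0.69 turned to 0.39, with 4 lower and 3 higher, after thinning to the shallowest depth. Wnt2 and Wnt11 were 341-fold and 29.2-fold lower, and the secreted Wnt binders Sfrp2 and Sfrp4 16.2-fold and 24.4-fold, whereas Sfrp1 was 4.82-fold and Wnt5a 3.67-fold higher. Of 27 genes of TGF-β and BMP signalling, 14 were lower and 5 higher (median log2 ratio -1.36). The ligand genes Tgfb1 and Bmp4 were 6.82-fold and 217-fold lower, and their target genes Id1, Id2 and Id3 3.89-fold, 9.69-fold and 3.84-fold. The BMP receptor gene Bmpr1a and the co-receptor gene Tgfbr3 were 9.27-fold and 6.02-fold higher.

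Inflammatory genes had the lowest median of the pathway lists. Of 29 described cytokine and chemokine genes, 26 were lower, 0 higher and 3 neither, and the median log2 ratio was -6.67. After thinning to the shallowest depth 24 of 27 were lower, and the median was -4.64. The list took 1.45% and 1.80% of reads in ASC_HFS and 0.0972% and 0.0981% in AD_HFS. Il6 stood at 1036 and 1073 ppm in ASC_HFS and at 1.43 and 1.27 ppm in AD_HFS, 780.0-fold lower. The neutrophil chemokine gene Cxcl1 stood at 2520.1 and 4019 ppm in ASC_HFS and 5.73 and 6.39 ppm in AD_HFS (539-fold lower). The monocyte chemokine gene Ccl2 was 158-fold lower, Il1b 165-fold, Ptgs2 (cyclooxygenase 2) 136-fold and the receptor gene Tlr2 41.5-fold. The macrophage growth factor gene Csf1 had a smaller ratio, at 1426 and 1723 ppm in ASC_HFS and 497 and 492 ppm in AD_HFS (3.19-fold lower), and Il18, Tlr4 and Cxcl12 were the 3 called neither. Macrophage and myeloid markers took 1.39% and 1.45% of reads in ASC_HFS and 0.580% and 0.577% in AD_HFS, and their part in this difference was not tested.

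Genes that NF-κB and other fast stimuli induce were lower too. Of 16 NF-κB regulators 13 were lower and 0 higher, with the inhibitor gene Nfkbia 19.0-fold lower and the adhesion genes Icam1 and Vcam1 13.4-fold and 20.6-fold. Of 18 immediate early genes 16 were lower and 0 higher, with Fos at 144 and 217 ppm in ASC_HFS and 5.35 and 5.57 ppm in AD_HFS, Fosb 236-fold and Atf3 16.3-fold lower. Of 16 cytosolic chaperone genes 13 were lower and 0 higher, with the inducible gene Hspa1a at 1697 and 2441 ppm in ASC_HFS and 10.7 and 10.7 ppm in AD_HFS (193-fold) and the constitutive gene Hspa8 2.73-fold. Hspa1a has a near-identical copy, so its reads may be split.

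Stress lists were mixed, and interferon response genes were more often lower than higher. Of 24 Nrf2 targets 9 were lower and 5 higher. Hmox1, the haem oxygenase gene, stood at 8196 and 9108 ppm in ASC_HFS and at 888 and 856 ppm in AD_HFS (9.92-fold lower), and the thioredoxin reductase gene Txnrd1 was 16.3-fold lower. The higher members included Me1, which also supplies NADPH to lipid synthesis, catalase (Cat, 14.4-fold), Mgst1 and Gpx3. Of 24 unfolded protein and ATF4 genes 8 were lower and 3 higher (median log2 ratio -0.049, and 0.0039 after thinning), Manf among the lower by the floor alone, with Atf4 7.11-fold lower and Pdia4 2.61-fold higher. Of 24 interferon response genes 13 were lower and 2 higher: Ifit1 and Oasl were 222-fold and 146-fold lower, while the transcription factor gene Stat2 stood at 43.1 and 28.2 ppm in ASC_HFS and 102 and 99.5 ppm in AD_HFS (2.83-fold higher).

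Cell cycle genes were higher or called neither, with a pair of exceptions. Of 37, 13 were higher, 2 lower and 22 neither (median log2 ratio 0.85). Mki67, a gene of cycling cells, stood at 6.16 and 7.06 ppm in ASC_HFS and at 34.5 and 33.1 ppm in AD_HFS (5.12-fold higher). Top2a, Ccna2 and Bub1 were 2.83-fold, 4.22-fold and 5.60-fold higher, and Pcna and Cdt1 were 5.56-fold and 4.54-fold lower. Many of these genes had few reads in the shallow precursor library, and without it 16 were higher and 5 lower. Of 18 senescence and p53 genes 4 were higher and 6 lower, with Cdkn2b 5.57-fold higher, Cdkn1a (p21) 2.50-fold lower and Gdf15 33.4-fold lower. Of 51 cytosolic ribosomal protein genes 0 were higher and 14 lower (median log2 ratio -0.90). Without ASC_HFS replicate 2, 32 of them were lower, and the list took 4.71% and 2.92% of reads in the ASC_HFS libraries.

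The cell type markers were read against the labels, which give mesenchymal stem cells for all 8 libraries. In bulk libraries, fewer cells of a type and less RNA per cell cannot be told apart. Of 18 mature adipocyte markers 16 were higher, 1 (Pck1) lower and 1 (Lep) neither, and the list took 0.616% and 0.477% of reads in ASC_HFS and 3.68% and 3.66% in AD_HFS. Adipocyte genes such as Adipoq and Cfd were thus also read in the libraries labelled as precursors. Of the members of the 11 marker lists that are in both tables, none had 0 reads in both libraries of either HFS group. Members missing from a table were not checked. In both tables were 3 of 11 mast cell, 3 of 14 lymphoid, 3 of 8 red blood cell and 4 of 12 skeletal muscle members.

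Macrophage markers were divided. Of 28, 2 were higher, 13 lower and 13 neither (median log2 ratio -1.14). The genes of MHC class II antigen presentation were among the lower ones: Cd74, the invariant chain, stood at 4026 and 4465 ppm in ASC_HFS and 8.09 and 7.76 ppm in AD_HFS (536-fold lower), and RT1-Db1, RT1-Bb, RT1-Ba and RT1-Da were between 275-fold and 714-fold lower. These class II genes are similar in sequence and their split is uncertain. The scavenger receptor genes Cd163 and Mrc1 were the 2 higher markers. Cd163 stood at 186 and 184 ppm in ASC_HFS and 629 and 621 ppm in AD_HFS (3.37-fold), and Mrc1 was 3.72-fold higher. Lyz2, Cd68, Adgre1 and Itgam were called neither, and the pan-leukocyte gene Ptprc was 4.42-fold lower.

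Endothelial and epithelial markers were mostly lower in the adipocytes. Of 14 endothelial markers 13 were lower and 1 higher (median log2 ratio -5.48), from 0.162% and 0.154% of reads in ASC_HFS to 0.0463% and 0.0452% in AD_HFS, with Plvap 116-fold, Cdh5 58.1-fold and Kdr 16.8-fold lower. The higher marker was Egfl7, at 126 and 90.7 ppm in ASC_HFS and 383 and 376 ppm in AD_HFS (3.50-fold). It made up most of the AD_HFS share of the list. In AD_HFS 5 of them, Emcn, Sox17, Sox18, Erg and Robo4, were under 1 ppm in both libraries. Of 11 described epithelial and mammary markers 10 were lower and 0 higher, from 0.149% and 0.166% to 0.00247% and 0.00246%, and 9 of the 12 listed in both tables were under 1 ppm in both AD_HFS libraries. After thinning, the median log2 ratio of the endothelial list was -3.66 and that of the epithelial list moved from -6.85 to -3.06. The inguinal fat pad of female rats is known to hold mammary tissue, and the labels give no sex. Mast cell, lymphoid and red blood cell lists had 3 genes each in both tables and no member called higher, and the call of the mast cell gene Kit as lower rests on the floor. Of 15 smooth muscle and pericyte markers 8 were higher and 3 lower, with Acta2 at 49.4 and 33.3 ppm in ASC_HFS and 304 and 301 ppm in AD_HFS, and the pericyte gene Rgs5 48.7-fold lower. Of 6 Schwann and neural markers 2 were higher and 1 lower, with 0.0424% and 0.0279% of reads in ASC_HFS and 0.0603% and 0.0587% in AD_HFS. Of 4 skeletal muscle markers 0 were higher and 1 lower, with 0.00628% and 0.00242% and 0.00656% and 0.00637%. Macrophage, endothelial and epithelial markers were lower in AD_HFS together with the inflammatory, NF-κB and interferon lists, and their part in those differences was not tested.

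**Figure D4:**
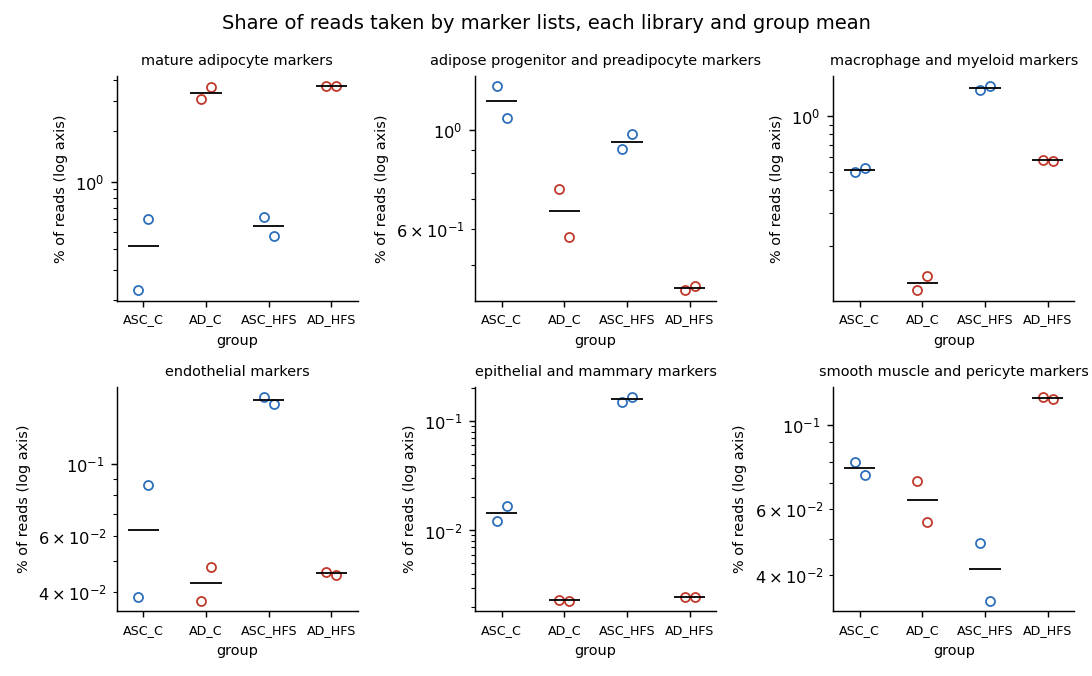
Percent of reads over the shared genes taken by 6 marker lists in each of the 8 libraries, on log axes that differ between panels. Blue circles are precursor and red circles adipocyte libraries, and the bar is the mean of the 2 libraries of a group. Mature adipocyte markers are higher in both AD groups, and macrophage, endothelial and epithelial markers are highest in ASC_HFS.

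The differentiation ratios of HFS cells were then set against those of control-diet cells. Between ASC_C and AD_C, 1283 of 13825 genes (9.28%) were higher and 2362 (17.1%) lower, 2139 of the latter without resting on the floor, with 837 genes higher and 1420 lower under both diets, 27 higher in HFS and lower in C, and 4 the reverse. The 837 were 32.6% of the 2564 genes higher in HFS and 65.2% of the 1283 higher in C. The difference of the log2 ratios, (AD_HFS over ASC_HFS) less (AD_C over ASC_C), was tested in a limma-trend fit of log2(ppm + 2) over all 8 libraries. Of 10629 genes with a mean of at least 5 ppm, 2218 passed at an adjusted p under 0.05, 1559 (14.7%) with a higher ratio in HFS and 659 (6.2%) with a lower one. The median difference over all tested genes was 0.24, and with median-of-ratios scaling, where it was -0.0099, the split was 992 against 1092. Single libraries moved these counts. Without AD_HFS replicate 1 there were 405 higher and 154 lower, and without replicate 2 there were 407 and 147. Without AD_C replicate 1 there were 495 and 201, without AD_C replicate 2 there were 911 and 478, and without ASC_C replicate 1 there were 894 and 400. Without ASC_HFS replicate 1 there were 2249 and 1037, and without ASC_HFS replicate 2 there were 1207 and 338.

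In some lists of growth and metabolism a large share of the tested members had a higher ratio in HFS. Of 36 tested cell cycle genes 29 had a higher and 0 a lower ratio in HFS by limma (median log2 difference 2.88). By limma-voom 22 were higher and 0 lower, and at an unadjusted p under 0.05 there were 31 and 0. In control-diet cells the fold rule called 24 of 37 lower and 0 higher. Mki67 stood at 54.5 and 27.0 ppm in ASC_C and 6.12 and 19.2 ppm in AD_C (log2 difference 3.69 ± 0.63 SE, limma adjusted p = 0.00767). Of 22 cholesterol genes 16, of 19 glycolysis genes 13 and of 45 nuclear respiratory genes 18 had a higher ratio by limma, with median differences of 1.92, 1.55 and 1.09. By limma-voom 13, 11 and 11 had a higher ratio. None had a lower ratio by limma or limma-voom, and at an unadjusted p under 0.05 there were 0, 3 and 0 lower. Of the 13 mitochondrially encoded genes and 51 ribosomal protein genes, limma and limma-voom called 0 in either direction, with 1 and 0 at an unadjusted p under 0.05. For the cell cycle, cholesterol, glycolysis and nuclear respiratory lists, both ASC_HFS shares of reads were below both ASC_C shares. Cell cycle genes took 0.153% and 0.120% in ASC_C, 0.0617% and 0.0449% in ASC_HFS, 0.0317% and 0.0405% in AD_C and 0.0552% and 0.0557% in AD_HFS.

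Mature adipocyte markers had a median log2 difference of -0.86, beside 0.24 over all tested genes. The list took 0.226% and 0.602% of reads in ASC_C and 3.08% and 3.63% in AD_C. ASC_C replicate 2 thus lay near the ASC_HFS libraries (0.616% and 0.477%) and ASC_C replicate 1 below them. Adipoq stood at 41.9 and 146 ppm in ASC_C. How far the lower ratios rest on ASC_C replicate 1 was not tested for this list. Of the 18 markers, limma called 0 with a higher and 3 with a lower ratio in HFS, beside 14.7% higher and 6.2% lower over all genes. There were 0 and 2 by limma-voom and 0 and 5 at an unadjusted p under 0.05. The 3 were Plin4 (-1.57 ± 0.29, limma adjusted p = 0.00936), Aqp7 (-1.77 ± 0.49, 0.0348) and Pck1. Pparg had a log2 difference of 0.12 ± 0.35 (limma adjusted p = 0.828), Cebpa of -0.49 ± 0.29 (0.253) and Adipoq of -1.88 ± 0.65 (0.0697), and none of the 3 passed, which does not show that they are equal. Of 25 synthesis genes 6 had a higher ratio by limma and 3 by limma-voom, among the 6 them Scd2 at 3.25 ± 0.40 and Elovl6 at 2.42 ± 0.67 (limma adjusted p = 0.00346 and 0.0351).

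Many inflammatory genes had lower ratios under HFS, though these lists held lower genes in control-diet cells too. There the fold rule called 25 of 28 cytokine and chemokine genes, 5 of 16 NF-κB regulators and 11 of 18 immediate early genes lower. It called 0 of them higher, beside 17.1% lower and 9.28% higher over all genes. Of 28 tested cytokine and chemokine genes 16 had a lower and 3 a higher ratio in HFS by limma. Of 16 NF-κB regulators there were 10 and 0, and of 18 immediate early genes 11 and 0. Over all tested genes 6.2% had a lower and 14.7% a higher ratio. For the cytokine and chemokine list limma-voom called 11 lower and 2 higher, and at an unadjusted limma p under 0.05 there were 17 and 4. For the NF-κB and immediate early lists limma-voom called 9 and 7 lower and 0 higher. At an unadjusted limma p under 0.05 there were 11 and 16 lower and 0 higher. Cxcl2, a neutrophil chemokine gene, stood at 14.1 and 21.0 ppm in ASC_C, 634 and 813 ppm in ASC_HFS, 0.237 and 0.406 ppm in AD_C and 0.494 and 0.580 ppm in AD_HFS (log2 difference -5.10 ± 0.37, limma adjusted p = 0.00112). Its adipocyte levels lay under 1 ppm with both diets and its precursor levels were far apart. Of 28 macrophage markers 10 had a higher ratio and 5 a lower one, the latter being Cd74 and the 4 RT1 class II genes, and of 8 epithelial and mammary markers 7 had a lower ratio. Limma-voom called 10 macrophage markers higher and 2 lower, and 4 epithelial and mammary markers lower. Macrophage markers took 0.501% and 0.528% of reads in ASC_C and 0.115% and 0.138% in AD_C, below the HFS shares of each stage, and their part in these differences was not tested. Gja5 had the lowest p of the named genes (6.14 ± 0.32, limma adjusted p = 1.08e-04), at 80.3 and 67.1 ppm in ASC_C and 68.6 and 47.2 ppm in AD_C, so that here the AD_HFS levels stood above both control groups and the ASC_HFS levels below them.

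**Figure D5:**
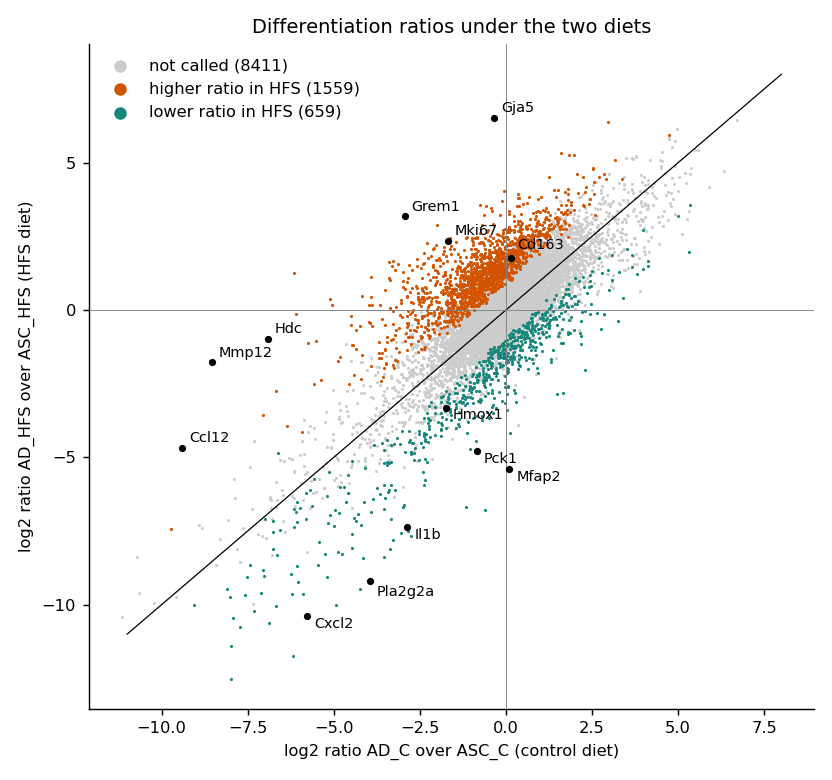
Log2 ratio of adipocytes over precursors in control-diet cells (horizontal) and HFS cells (vertical) for 10629 tested genes, with the line of equal ratios. Orange points are the 1559 genes with a higher and green points the 659 with a lower ratio in HFS at an adjusted p under 0.05 by limma, and grey points were not called. Gja5 and Grem1 lie far above the line, and Cxcl2 and Pla2g2a far below it.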

How the data were processed

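RNA-seq was run on 8 libraries, 2 in each of 4 groups. The labels' protocols give 50 bp paired-end reads, and the submitters' processing notes name FastQC, STAR, featureCounts and DESeq2 and the builds mRatBN7.2 and rn7, with versions and strand setting not given in the sources used here. The authors deposited 1 table per stage, whose values were used as signal: they are the antilog of variance-stabilised values, read so from the numbers and not from a header. With m the minimum of a table, (value - m)^2 / value was divided in each library by its smallest nonzero result. All values were then whole numbers within 0.0001. They were used as reads, which takes that smallest result to be 1 read, and each library was rescaled to ppm over the shared genes. Of 970 list symbols 850 matched, 16 by another name, and genes with no symbol were left unnamed.

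Stages were compared by the fold rule (floor of 3 reads on both groups, 2-fold gap; the floor on the low group alone was added after the values were seen) and diets within differentiation by limma 3.58.1 in R 4.3.3 (pseudocount 2 ppm, mean of at least 5 ppm, 4 residual degrees of freedom, Benjamini-Hochberg adjustment, no replicate block). Scripts used Python 3.11.15 and were tested on simulated data with 200 changed genes. The fold rule recovered 24% of simulated 2-fold and 100% of 4-fold changes. In the 2-fold run it also called 520 of 13801 unchanged genes. The interaction fit recovered 0% of 2-fold and 67.5% of 4-fold changes, so it misses small differences. It called 0 of 9610 and 1 of 9606 unchanged genes. The selected genes and lists were chosen with earlier results of these data known. Genes named by rule were the 15 largest ratios per direction, up to 5 called members of each list by level, 24 selected genes, the 6 largest interactions per direction and the 10 genes with most reads per library. Other list members, mostly pathway steps and exceptions, were named after their values were seen. Some members counted in the lists are not reported here by name. Alternatives covered scaling, floor, gap, depth, filters, the test and each library left out. Intervals are exact and cover counting error only.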

Additional observations from a re-analysis of the deposited data

Results flagged for a closer look

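For the 17 genes given here, the differentiation ratio differed between the diets by the test of the difference itself (limma, adjusted p under 0.05). They are the genes with the largest called interactions per direction, and selected genes that passed. The former were picked by this same test, so their passing was fixed beforehand. Other named genes that passed, such as Scd2 and Cd74, are not repeated. Each of the 17 is given as a log2 difference, HFS less control, with its SE and no explanation.

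Higher ratios in HFS were found for the macrophage elastase gene Mmp12 (6.25 ± 0.79), Gja5 (6.14 ± 0.32), the BMP antagonist gene Grem1 (6.09 ± 0.67) and the histidine decarboxylase gene Hdc (5.34 ± 0.43). Others were the chemokine gene Ccl12 (4.94 ± 0.77), Cd300c2 (4.78 ± 0.78), Mki67 (3.69 ± 0.63) and Cd163 (1.70 ± 0.41). Hdc stood at 271 and 179 ppm in ASC_C, 3.76 and 3.02 ppm in ASC_HFS, 2.67 and 1.08 ppm in AD_C and 1.64 and 1.79 ppm in AD_HFS, so ASC_C stood apart from the other groups. Grem1 stood at 159.9 and 107 ppm in ASC_C, 3.08 and 0 ppm in ASC_HFS, 10.5 and 24.2 ppm in AD_C and 26.3 and 28.7 ppm in AD_HFS. Mmp12 stood at 974 and 452 ppm in ASC_C, 28.4 and 6.05 ppm in ASC_HFS, 2.08 and 1.75 ppm in AD_C and 4.88 and 5.15 ppm in AD_HFS.

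Lower ratios in HFS were found for Cxcl2 (-5.10 ± 0.37), the secreted phospholipase gene Pla2g2a (-4.26 ± 0.36), Il1b (-4.22 ± 0.48), Hba-a1 (-3.97 ± 0.67) and the microfibril gene Mfap2 (-3.91 ± 0.85). Others were Cxcl1 (-3.90 ± 0.38), Il6 (-2.19 ± 0.43), Hmox1 (-1.61 ± 0.41) and Pck1 (-3.34 ± 0.50). Mfap2 stood at 6.29 and 11.9 ppm in ASC_C, 36.9 and 85.7 ppm in ASC_HFS, 16.7 and 2.88 ppm in AD_C and 1.51 and 1.42 ppm in AD_HFS. Hba-a1 has a near-identical copy, Hba-a2, and how its reads were split is uncertain.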

How the results depend on the processing

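Counts between ASC_HFS and AD_HFS (2564 higher, 2651 lower) were 918 and 4558 on the deposited values without inversion, 6029 and 5301 with no gap, 673 and 1402 with a 4-fold gap, 1744 and 2824 with a floor of 10 reads, 3274 and 2237 with no floor and 2304 and 1543 after thinning to the shallowest library. With the floor on the group called low alone, 2564 and 2190 were called. Median-of-ratios scaling gave 2061 and 2986 and moved the median log2 ratio of all genes from 0.06 to -0.11, upper-quartile scaling gave 2344 and 2789, and leaving out the 20 genes with most reads 2678 and 2565. Leaving out each HFS library in turn gave 2666 to 3913 higher and 2769 to 3875 lower.

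The interaction (1559 higher, 659 lower) gave 992 and 1092 with median-of-ratios scaling, 938 and 422 after thinning and 1150 and 444 with limma-voom. Leaving out each library in turn gave 405 to 2249 higher and 147 to 1037 lower; an arm with 1 library was then assumed to vary like the other groups. Hba-a1 lost its call with limma-voom (adjusted p = 0.0964), and Mfap2 with limma-voom (0.0912) and without ASC_C replicate 1 (0.0723), ASC_HFS replicate 2 (0.0671) or AD_C replicate 1 (0.0541).

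With a replicate block, ratios within replicate numbers gave 2665 higher and 2774 lower, and the interaction 1333 and 540. Deviations of same-numbered libraries correlated at 0.239 (HFS) and -0.0483 (control) over 7104 genes, so the numbers were not taken to pair the samples.

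The direction turned for Dlk1 (-0.48 on the deposited values). Among lists whose share differed more than 2-fold, that of the Nrf2 targets turned (0.53 without the 20 genes with most reads). Shares that differed less could turn too. Without ASC_HFS replicate 2, the cell cycle list took 0.0617% in ASC_HFS and 0.0552% and 0.0557% in AD_HFS (share ratio 1.04 with all libraries). Adipogenic factors then took 0.289% in ASC_HFS and 0.330% and 0.320% in AD_HFS (0.922 with all libraries). List medians turned for collagens (-0.020, median-of-ratios), matrix glycoproteins (0.016 without the 20 genes, 0.028 without ASC_HFS replicate 2), Schwann markers (0.015 without ASC_HFS replicate 2), Wnt genes (0.39, thinned) and unfolded protein genes (0.0039, thinned). The floor on the low group alone, and the list values under other scalings, depths and libraries, were added after seeing the data. The cause of these changes was not tested. Counting each named gene once under each alternative, its ratio moved by less than the spread between replicates in 1347 cases and by more in 303. Depth limits the precursor values: 10.6% of genes had no reads in ASC_HFS replicate 2.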

Other observations

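Some genes were listed in 1 table alone and have no ratio. The precursor table alone listed 277 genes, of which 6 reached 20 ppm in the ASC_HFS libraries: the myocilin gene Myoc (88.2 and 71.5 ppm), the mast cell protease genes Mcpt1l1 (56.0 and 51.4), Cma1 (50.9 and 32.2) and Cpa3 (30.4 and 30.2), the globin gene Hbb-b1 (37.1 and 31.2) and Gprc5d (22.0 and 22.2). The adipocyte table alone listed 4218 genes, of which 3 reached 20 ppm in the AD_HFS libraries. The named one among them was the sulfotransferase gene Sult1a1 (27.4 and 28.4 ppm).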
